A study of Saccharomyces cerevisiae with 56 samples.

Results

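*sgs1*Δ cells, which lack the RecQ helicase Sgs1, were compared with *mre11*-H125N cells, whose Mre11 protein lacks nuclease activity, for the DNA that they captured at a single HO-induced DSB at *MAT***a**. The donors were those listed for the sgs1 and mre11-H125N libraries, a donor being a segment of the genome found inserted at the break. There were 45 donors in *sgs1*Δ and 10 in *mre11*-H125N, which together made 55 of the 1620 donors in the lists used for 16 genotypes. Both strains are haploid and isogenic to JKM139. The first carries sgs1::KanMX and the second mre11-H125N::URA3. Both also carry DELho and the silent-cassette replacements hml::ADE1 and hmr::ADE1, so that no second copy of the cassette remained as a repair template. The nutritional markers of both are ade1, lys5, ura3-52, trp1::hisG and a mutant allele of leu2, and HO is driven by galactose (ade3::GAL10::HO). HO was induced on galactose plates at 30 °C and all colonies were pooled. Each genotype was 1 strain with 2 libraries, of 83280 and 22800 colonies in *sgs1*Δ and 64320 and 80000 colonies in *mre11*-H125N. The lists pool the libraries of a genotype and give no read numbers, so neither the spread between libraries nor the read depth is known. The amplicon does not include the mutated genes, so the labels could not be checked against them. Further comparisons use *exo1*Δ (exo1::TRP1), *sgs1*Δ *exo1*Δ (sgs1::KanMX exo1::TRP1) and *rad27*Δ (rad27::klTRP1), also JKM139 derivatives. *exo1*Δ had 2 libraries (54240 colonies), *sgs1*Δ *exo1*Δ 4 (55000) and *rad27*Δ 14 (820032). The libraries of the first 2 were grown at 30 °C, and those of *rad27*Δ at 23, 30 or 37 °C.

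After a DSB, the 5′ strands are first cut back near the end by the Mre11 complex with Sae2. Longer stretches are then resected by Exo1 or by the nuclease Dna2 together with the Sgs1 helicase, which leaves single-stranded DNA. Ty elements are the retrotransposons of yeast. They are copied through an RNA into cDNA, which can be integrated or captured at a break. A Ty element has a gag frame, a longer frame that continues into pol, and a long terminal repeat (LTR) at each end. The gag frame of Ty1 begins inside the left LTR, and the site where the initiator tRNA primes reverse transcription lies just inside that LTR.

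Insertions from outside the mating-type cassettes were more frequent in *sgs1*Δ. *sgs1*Δ had 42 such insertions in 106080 colonies and *mre11*-H125N had 6 in 144320 colonies. This is 3.96 per 10000 colonies in *sgs1*Δ (exact 95% interval 2.85 to 5.35) and 0.416 in *mre11*-H125N (0.153 to 0.905), a 9.52-fold difference (4.03 to 27.4, *P* = 1.11e-10, two-sided Fisher's exact test). Ty DNA was the most frequent class in both lists, with 26 donors in *sgs1*Δ and 4 in *mre11*-H125N. The frequency of Ty donors was 2.45 per 10000 colonies in *sgs1*Δ (1.60 to 3.59) and 0.277 in *mre11*-H125N (0.0755 to 0.710). The intervals did not overlap, and the ratio was 8.84 (3.07 to 34.9, adjusted *P* = 3.71e-06, Fisher's exact test, Benjamini-Hochberg over the 5 classes with any donor). Nuclear donors, here without rDNA, numbered 11 in *sgs1*Δ and 2 in *mre11*-H125N, or 1.04 (0.518 to 1.86) and 0.139 (0.0168 to 0.501) per 10000 colonies. This was a 7.48-fold difference (1.63 to 69.5, adjusted *P* = 0.00771), and both *mre11*-H125N donors came from 1 complex insertion.

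The other classes were small. rDNA gave 3 donors in *sgs1*Δ and 1 in *mre11*-H125N, a ratio of 4.08 that could not be told from 1 (0.328 to 214, adjusted *P* = 0.397). Mitochondrial DNA gave 3 donors in *sgs1*Δ and 0 in *mre11*-H125N, where the exact interval reaches 0.256 per 10000 colonies (adjusted *P* = 0.127). Donors from the mating-type cassettes, which aligned to HMR**a** in the reference although the strains carry the sequence only at *MAT***a**, numbered 2 in *sgs1*Δ and 3 in *mre11*-H125N, and their ratio was 0.907 (adjusted *P* = 1.00). Set against the cassette donors of the same list in place of colonies, all insertions kept their call (ratio 10.5, *P* = 0.0297, Fisher's exact test). The ratios for Ty (9.75, adjusted *P* = 0.175) and nuclear donors (8.25, adjusted *P* = 0.197) were as large as over colonies but not past the threshold, with 2 cassette donors in *sgs1*Δ and 3 in *mre11*-H125N below them. The paper reports that Mre11 nuclease promotes local inverted insertions from *MAT***a**, so this denominator may itself differ between the genotypes. The intervals cover counting error only, since the lists pool the libraries of a genotype. The amplicon reads also carry no molecular identifiers. Colonies were not corrected for the efficiency of HO cutting in each strain.

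**Figure D1:**
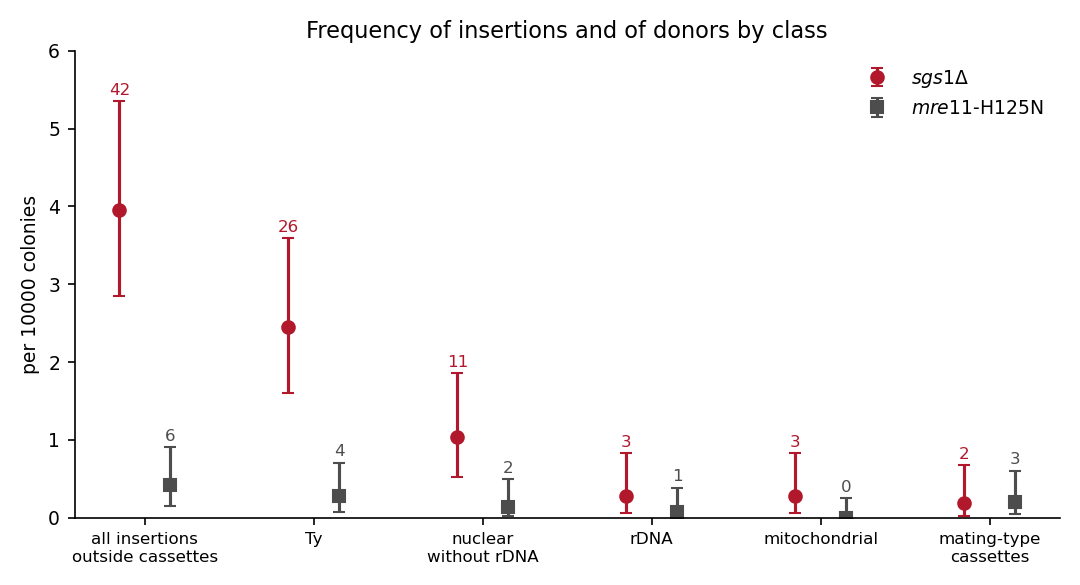
Insertions from outside the mating-type cassettes and donors of each class per 10000 colonies (linear axis), with *sgs1*Δ as circles and *mre11*-H125N as squares. Bars are exact 95% intervals and the number above each bar is the count. The intervals of all insertions, of Ty and of nuclear donors lie higher in *sgs1*Δ (2.85 to 5.35 for all insertions) than in *mre11*-H125N (0.153 to 0.905), whereas those of rDNA, mitochondrial and cassette donors overlap.

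The make-up of the lists was similar within wide intervals. Ty DNA was 26 of 43 donors outside the cassettes in *sgs1*Δ (60.5%, 44.4 to 75.0) and 4 of 7 in *mre11*-H125N (57.1%, 18.4 to 90.1), and the shares were not distinguished (*P* = 1.00, Fisher's exact test). Nuclear DNA was 25.6% (13.5 to 41.2) in *sgs1*Δ and 28.6% (3.67 to 71.0) in *mre11*-H125N. The read names place both lists in the same sequencing run, in which 62 of the 367 *rad27*Δ donors were also read. Those *rad27*Δ donors were 5 of 61 from Ty (8.20%) and 55 from nuclear DNA. The list named rev3, also read in that run, had 4 of 4 donors outside the cassettes from Ty. The run thus held lists with low and with high Ty shares, and whether it bears on the shares was not tested.

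Ty donors in *sgs1*Δ were mostly Ty1, the most numerous Ty family, with 23 donors from Ty1, 2 from Ty2 and 1 from Ty4. All 4 donors in *mre11*-H125N were Ty1. The 26 *sgs1*Δ donors fell in 12 elements, 7 of which had at least 2 donors. YPL257W-B had 6, YPR137C-B 4, YLR227W-B 3, and YDR365W-B, YOL103W-B, YPR158C-D and the Ty2 element YOR192C-B had 2 each. The 4 *mre11*-H125N donors fell in YML039W, which had 2 there and 1 in *sgs1*Δ, in YOL103W-B, which had 1, and in YDR210C-D, which had 1. The most used element of *sgs1*Δ, YPL257W-B, had no donor in *mre11*-H125N and 120 donors in 7 other lists. Copies of Ty1 are nearly identical, and the elements are those of the reference genome rather than of the strains, so the copy of origin is not known. An element has an LTR at each end, so for LTR sequence the listed end of the element is not certain either.

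Ty positions are given from the first base of the gag frame as base 1, in the direction of the element, and negative numbers lie before it. By the midpoint of the donor, 13 of the 26 *sgs1*Δ donors lay before the gag frame, 3 in gag, 8 in pol and 2 after the end of pol. In *mre11*-H125N these were 2, 1, 1 and 0 of 4. The listed strand was that of the frame (sense) for 13 *sgs1*Δ donors and opposite to it (antisense) for the other 13, while all 4 *mre11*-H125N donors were antisense. Sense donors of *sgs1*Δ were 105 to 348 bp long with a median of 162 bp. Antisense donors were 81 to 345 bp with a median of 111 bp in *sgs1*Δ and 94 to 351 bp with a median of 104.5 bp in *mre11*-H125N. In *sgs1*Δ, 6 of 8 pol donors were sense, and 8 of 13 donors before gag were antisense. The 6 sense pol donors include 2 of Ty2, 1 of Ty4 and 2 of Ty1 with identical ends.

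**Figure D2:**
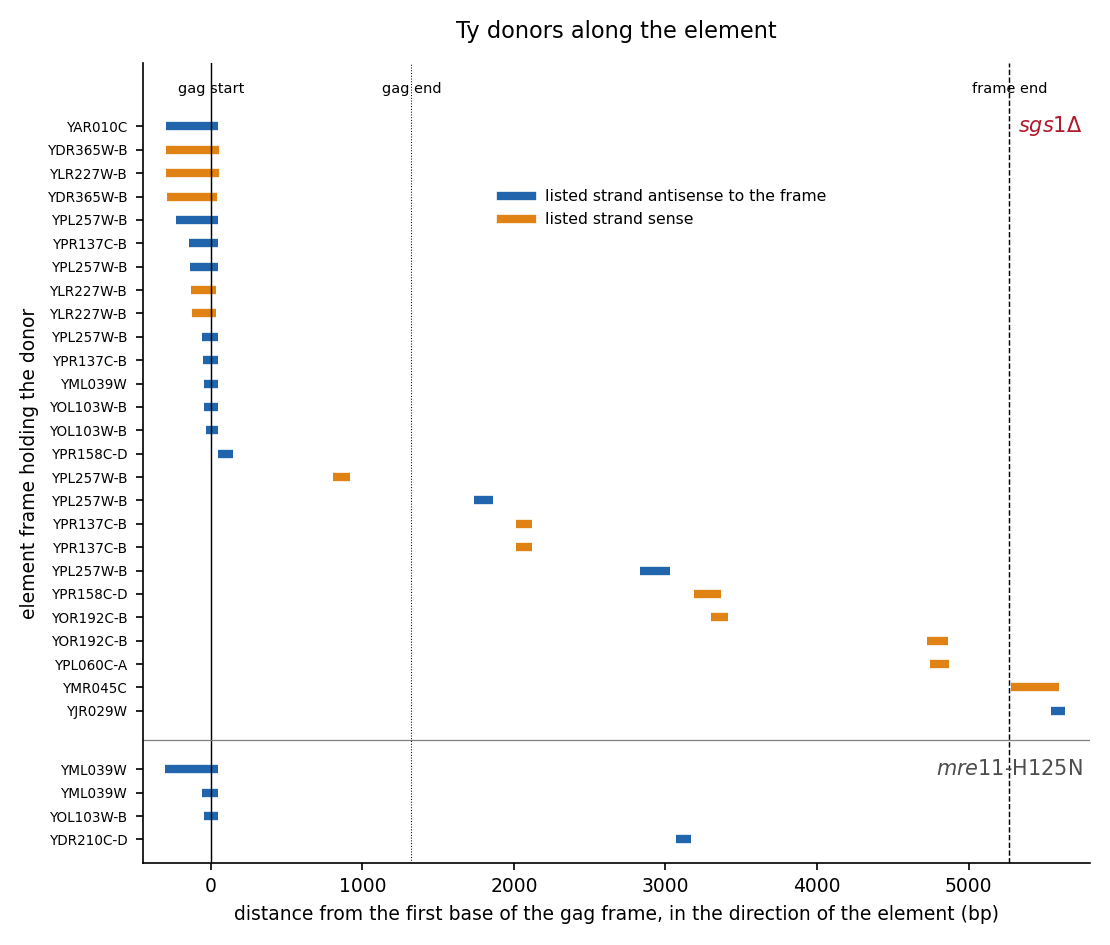
Every Ty donor as a bar on the element, in bp from the first base of the gag frame (linear axis), with the 26 *sgs1*Δ donors above the line and the 4 *mre11*-H125N donors below it. Blue bars are antisense and orange bars are sense to the frame, and the gag end and frame end drawn are those of the Ty1 element YPL257W-B (other families differ slightly). Bars crowd over the gag start in both genotypes, and the blue bars there stop at a common inner position.

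By listed position, most Ty1 donors crossed the gag start, which lies in the left LTR. Whether a donor came from the left or the right LTR was not tested. For *rtt105*Δ, the paper places most Ty1 cDNA insertions in the 3′ (right) LTR region. Of the 23 Ty1 donors of *sgs1*Δ, 14 crossed the first base of gag, and 3 of 4 did so in *mre11*-H125N. Among them were 9 antisense donors of *sgs1*Δ, from 5 elements, whose outer ends ranged from base -296 to base -31. Their inner ends did not vary in this way. All 9 ended at base 48 or 49 of the gag frame, as did the 3 antisense crossing donors of *mre11*-H125N, with outer ends from -301 to -44. Of the 9 in *sgs1*Δ, 1 was a piece of the complex insertion described below, whose other piece covers bases 44 to 144. The 6 *sgs1*Δ donors that ended at base 49 were in elements on the Watson strand and the 3 that ended at base 48 were in elements on the Crick strand. The 3 *mre11*-H125N donors ended at base 49 in Watson elements. The inner end of an antisense donor is its listed end in Watson elements and its listed start in Crick elements. Only starts were renumbered, and whether the split by strand comes from numbering was not tested.

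The donors of YPL257W-B show the pattern. The 3 that crossed the gag start lay at chrXVI:56514-56796 (283 bp, bases -233 to 49), chrXVI:56611-56796 (186 bp, bases -136 to 49) and chrXVI:56686-56796 (111 bp, bases -61 to 49). They share the inner end and differ only in how far they run into the LTR region. In *mre11*-H125N, YML039W gave donors at chrXIII:196326-196676 (351 bp, bases -301 to 49) and chrXIII:196567-196676 (110 bp, bases -60 to 49), and *sgs1*Δ gave chrXIII:196579-196676 (98 bp, bases -48 to 49) in the same element. YOL103W-B likewise held 98 and 81 bp donors of *sgs1*Δ that ended at chrXV:118048 and a 94 bp donor of *mre11*-H125N with the same end.

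The 5 sense donors of *sgs1*Δ across the gag start behaved differently. They came from YDR365W-B and YLR227W-B, neither of which held an antisense crossing donor in *sgs1*Δ. Their inner ends were bases 51 and 43 in YDR365W-B (348 and 337 bp) and bases 51, 34 and 34 in YLR227W-B (347, 164 and 162 bp). The 3 of 337 to 348 bp started between bases -296 and -293, close to the outer end of the 345 bp antisense donor in YAR010C (-296).

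The common inner end was seen after the values were known, and no test was made of it. It was also present outside these 2 genotypes. In all other lists, 43 of 71 antisense donors across the gag start ended at base 48 or 49 (60.6%), which is 16.0% of their 269 Ty1 donors, against 9 of 23 (39.1%) in *sgs1*Δ and 3 of 4 (75.0%) in *mre11*-H125N. The rtt105 list held 191 of those 269 Ty1 donors, at 12.6%. Among the other lists the share ran from 0 (0 of 6, rtt105 rad27) to 100% (2 of 2, pol32). It was 6.67% in rad27 (1 of 15) and 50.0% in RFA1-t33 (4 of 8), so most of these shares rest on few donors. The end occurred in 10 of the 12 lists with a Ty1 donor. Of the 2 lists without it, the one named rev3 is linked to both rev3 and yku70 libraries in the deposited library list, so its genotype is in doubt. In the related genotypes it made 6 of 13 antisense crossing donors in *sgs1*Δ *exo1*Δ and 2 of 4 in *exo1*Δ.

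**Figure D3:**
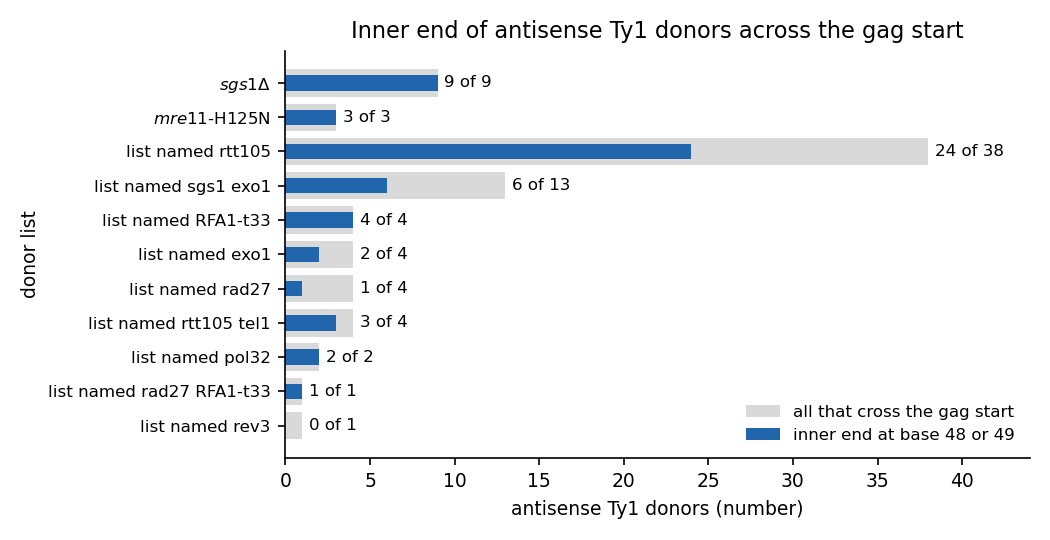
Antisense Ty1 donors that cross the gag start in each list (grey bars, number of donors) and those among them whose inner end is base 48 or 49 of the gag frame (blue bars). All 9 donors of *sgs1*Δ and all 3 of *mre11*-H125N have this end, and so have 24 of 38 in the rtt105 list.

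The remaining Ty donors of *sgs1*Δ were spread along the frames. YPL257W-B held a sense donor in gag (bases 804 to 916) and antisense donors in pol at bases 1735 to 1863 and 2834 to 3027. YPR137C-B held 2 donors with identical ends (chrXVI:808153-808257, 105 bp, bases 2013 to 2117, sense), which the list keeps as separate insertions. YPR158C-D held a sense donor at bases 3185 to 3365. The Ty2 element YOR192C-B held sense donors at bases 3301 to 3412 and 4724 to 4862, and the Ty4 element YPL060C-A held 1 at bases 4746 to 4869. After the end of pol lay a 319 bp sense donor beyond YMR045C (bases 5277 to 5595) and a 91 bp antisense donor beyond YJR029W (bases 5544 to 5634), which also overlapped RBH2. In *mre11*-H125N the only donor away from the gag start was in pol of YDR210C-D (bases 3068 to 3166, 99 bp, antisense).

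The single complex insertion of *sgs1*Δ consisted of Ty1 DNA. Its donors were listed in YPR137C-B (chrXVI:810222-810323, 102 bp, bases -53 to 48) and YPR158C-D (chrXVI:856114-856214, 101 bp, bases 44 to 144), both antisense. In element coordinates they overlapped by 5 bases and together spanned bases -53 to 144, a stretch of 198 bp. The 2 pieces are thus continuous in element coordinates although they are listed in elements that lie apart on chromosome XVI. Whether they were copied as 1 stretch from 1 element was not tested. The single complex insertion of *mre11*-H125N held nuclear DNA only, as described next.

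Most Ty donors of *sgs1*Δ had a neighbour in another list and few of its nuclear donors did. Of the 26 Ty donors of *sgs1*Δ, 23 (88.5%) lay within 500 bp of a donor of another list, and 172 of the 295 Ty donors of all other lists (58.3%) lay within 500 bp of one in *sgs1*Δ. For nuclear donors these were 2 of 11 (18.2%) and 9 of 1017 (0.885%). Exact copies of a listed segment in another list were found for 6 Ty donors and 0 nuclear donors of *sgs1*Δ. For 3 of the 6 a copy was read in the same sequencing run as *sgs1*Δ, in the rad27 or rev3 list, and these include both identical donors of YPR137C-B. Whether the shared run bears on them was not tested.

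The 11 nuclear donors of *sgs1*Δ lay on 8 chromosomes, and 8 of them overlapped an annotated gene. No gene was hit more than once. Listed strands are those of the reference. In protein-coding genes, *KCC4*, which encodes a kinase of the bud neck, gave 77 bp (chrIII:81623-81699, + strand), and *YCF1*, the vacuolar transporter of glutathione conjugates, gave 316 bp (chrIV:726285-726600, +). *MRP13*, a gene for a protein of the mitochondrial ribosome, gave 320 bp (chrVII:647759-648078, -), and *RRN5*, which encodes a subunit of the upstream activation factor of RNA polymerase I, gave 64 bp (chrXII:424189-424252, +). *ATR1*, which encodes a multidrug efflux pump, gave the longest donor, 400 bp (chrXIII:38609-39008, -), and *GRE1*, a stress-induced hydrophilin gene, gave 144 bp (chrXVI:128906-129049, +). The snoRNA gene *SNR86* gave 292 bp (chrXIII:762821-763112, -).

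The 3 nuclear donors outside genes were an intergenic segment 79 bp from *RHB1*, the gene of a Rheb-type GTPase (chrIII:167002-167291, 290 bp, -), and 2 short segments at chromosome ends. These were chrIII:153-189 (37 bp, +, 152 bp from the left end, nearest gene YCL075W at 1937 bp) and chrXV:23-72 (50 bp, +, 22 bp from the left end, nearest gene YOL166W-A at 513 bp). The ends are those listed, and whether the sequences are unique to them was not tested. These 2 segments were the shortest nuclear donors of *sgs1*Δ. Within 1 kb of a chromosome end lay 2 of 11 nuclear donors of *sgs1*Δ (18.2%), 0 of 2 of *mre11*-H125N and 21 of 1015 of all other lists (2.07%). Within 20 kb these were 2 of 11 (18.2%), 0 of 2 and 134 of 1015 (13.2%). No test was made of these shares.

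Of the gene groups given here, snoRNA genes held 1 nuclear donor of *sgs1*Δ (*SNR86*). Ribosomal protein genes, glycolytic genes, hexose transporters, and flocculins and mannoproteins held 0. *mre11*-H125N had 0 in each of these groups. In that order the groups hold 76, 132, 17, 17 and 41 genes. With 11 and 2 nuclear donors, counts of 0 or 1 in groups of this size show neither preference nor avoidance. No nuclear donor of *sgs1*Δ lay within 0.2 kb of a tRNA gene, against 1 of 2 in *mre11*-H125N and 27 of 1015 (2.66%) in all other lists.

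The nuclear donors of *mre11*-H125N were both in its complex insertion. One was 331 bp (chrVII:739157-739487, +), of which 39 bp lay in the tRNA gene YNCG0033W. The other was 50 bp (chrXII:366235-366284, +) and began at the first base of *SNR6*, which encodes the U6 snRNA of the spliceosome. Neither segment had a donor of another list within 500 bp.

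The rDNA donors of *sgs1*Δ were 358 bp at the end of the 35S precursor (chrXII:451575-451932, +, in ETS2-1 and RDN25-1), 152 bp in its first external spacer (chrXII:458140-458291, +, in ETS1-1) and 76 bp beyond its start (chrXII:458960-459035, +, 528 bp from RDN37-1). The *mre11*-H125N donor was 202 bp across the start of the precursor (chrXII:458335-458536, -), with 98 bp in ETS1-1. The rDNA repeats are alike, so the repeat of origin is not known. The mitochondrial donors of *sgs1*Δ were 240 bp within *COX1*, the gene of a cytochrome oxidase subunit (positions 18967 to 19206), 66 bp between genes (71043 to 71108, nearest gene tY(GUA)Q at 136 bp) and 161 bp over the methionine tRNA gene tM(CAU)Q1 (72632 to 72792).

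Donor lengths overlapped between the genotypes in every class with a donor in both. Outside the cassettes, donors were 37 to 400 bp with a median of 152 bp in *sgs1*Δ (n = 43) and 50 to 351 bp with a median of 110 bp in *mre11*-H125N (n = 7). Ty donors had a median of 134 bp (81 to 348) in *sgs1*Δ and 104.5 bp (94 to 351) in *mre11*-H125N. Of the 11 nuclear donors of *sgs1*Δ, 4 were under 100 bp, 1 was 144 bp and 6 were 284 to 400 bp, with a median of 284 bp. In *mre11*-H125N they were 50 and 331 bp. Cassette donors were 43 and 46 bp in *sgs1*Δ and 40, 43 and 194 bp in *mre11*-H125N. In the shared run, the nuclear donors of *rad27*Δ had a median of 50 bp (24 to 263). Donors are not replicates of a genotype, and lengths are given without a test.

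**Figure D4:**
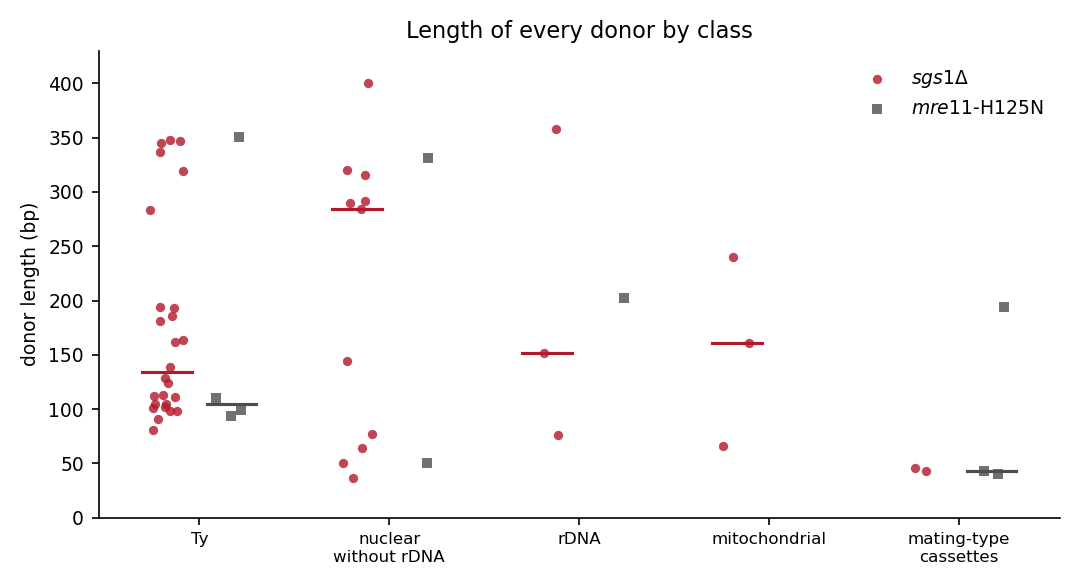
Length in bp (linear axis) of every donor by class, with *sgs1*Δ as circles left of *mre11*-H125N as squares. Lines are medians where a class has over 2 donors. The points of both genotypes overlap, and the nuclear donors of *sgs1*Δ run from 37 to 400 bp, with none between 144 and 284 bp.

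Set against other genotypes, *sgs1*Δ had more Ty donors and fewer nuclear donors than *rad27*Δ, and fewer of both than *sgs1*Δ *exo1*Δ. *sgs1*Δ had 2.45 Ty donors per 10000 colonies, against 1.47 in *exo1*Δ (8 donors, 0.637 to 2.91), 5.09 in *sgs1*Δ *exo1*Δ (28 donors, 3.38 to 7.36) and 0.220 in *rad27*Δ (18 donors, 0.130 to 0.347). The ratio of *sgs1*Δ to *rad27*Δ, which lacks the flap nuclease of Okazaki fragment processing, was 11.2 (adjusted *P* = 1.29e-13, Fisher's exact test, Benjamini-Hochberg over the 3 genotypes), or 8.18 (adjusted *P* = 7.19e-11) without the colonies of the *rad27*Δ libraries at 37 °C. That to *sgs1*Δ *exo1*Δ was 0.481 (adjusted *P* = 0.0136), but 0.655 (adjusted *P* = 0.296) when complex insertions were left out. That to *exo1*Δ was 1.66 (0.731 to 4.25, adjusted *P* = 0.276), which leaves the difference undetermined.

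The nuclear donors of *sgs1*Δ were at 1.04 per 10000 colonies, against 6.0 in *sgs1*Δ *exo1*Δ (33 donors, ratio 0.173, adjusted *P* = 1.41e-07) and 3.80 in *rad27*Δ (312 donors, ratio 0.273, adjusted *P* = 4.29e-07). *exo1*Δ had 0 (0 to 0.680, against 0.518 to 1.86 in *sgs1*Δ, adjusted *P* = 0.0204). Insertions of all kinds outside the cassettes in *sgs1*Δ were 2.39-fold those of *exo1*Δ (adjusted *P* = 0.0253) and 0.287-fold those of *sgs1*Δ *exo1*Δ (adjusted *P* = 9.25e-11). Over the colonies of all *rad27*Δ libraries, they were 0.990-fold those of *rad27*Δ (adjusted *P* = 1.00). The *rad27*Δ colonies include libraries grown at 23, 30 and 37 °C. The study's supplement counts *rad27*Δ colonies without the libraries at 37 °C. Leaving those 3 libraries out of the colonies changed the call for all insertions, with a ratio of 0.725 (adjusted *P* = 0.0492), and gave 0.200 for nuclear donors (adjusted *P* = 4.28e-11), so the comparison of all insertions with *rad27*Δ depends on the colonies counted. The *exo1*Δ and *sgs1*Δ *exo1*Δ lists come from other sequencing runs than *sgs1*Δ, so run and genotype cannot be told apart there. Of the 367 donors of *rad27*Δ, only 62 were read in the run of *sgs1*Δ, so its ratios also mix runs.

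**Figure D5:**
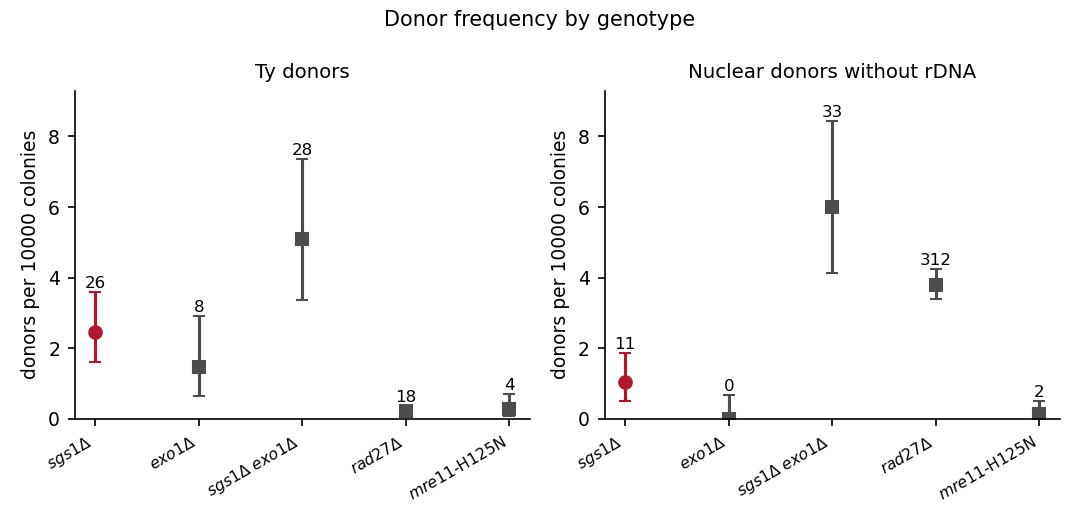
Ty donors (left) and nuclear donors without rDNA (right) per 10000 colonies (linear axes) in *sgs1*Δ (circle) and in 4 other genotypes (squares). Bars are exact 95% intervals and numbers are donor counts. The *rad27*Δ points use the colonies of all its libraries, including those at 37 °C. For Ty, *sgs1*Δ (2.45) lies above *rad27*Δ and *mre11*-H125N, and for nuclear donors (1.04) it lies below *sgs1*Δ *exo1*Δ and *rad27*Δ.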

How the data were processed

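Donor lists of *Break-Ins* libraries were used for 16 genotypes. For these the authors cleaned reads with BBDuk and joined read pairs with PEAR. BLASTN then gave insertions longer than 10 bp, whose duplicates were discarded before donors were assigned. Positions as deposited place each donor on R64 in base pairs, with its strand and no read number. Of 30 files, 4 were not used (a library list, a header-only list and the lists of a genotype without libraries). Starts were printed 1-based. Donors were classed by the RefSeq gene table (R64) with margins of 400 bp around Ty frames, 500 bp around rDNA and 700 bp around the cassettes. Ty frames were found by structure, as a long unnamed frame that shares its start with a shorter one, with frames of the same length and a few listed by locus tag added. Frequencies over the colony numbers of the labels were compared by two-sided Fisher's exact test with exact (Clopper-Pearson) intervals. All donors outside the cassettes were members, and genes they overlap, nearest genes and Ty elements with at least 2 *sgs1*Δ donors were named, except 1 item that is not reported here. The members, lists and tests were chosen with earlier results of these data known. The tests and coordinates were checked on simulated data. Donor sequences were not used here. Calculations used Python 3.11.15, pandas 2.3.3 and SciPy 1.17.1.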

Additional observations from a re-analysis of the deposited data

How the results depend on the processing

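Alternatives were the methods' chi-square test, counting once the donors of a list whose ends both agree within 5 bp, single-donor insertions only, a minimum of 50 bp, Ty margins of 0 and 1000 bp, and cassette donors as the denominator. The ratio of *sgs1*Δ to *mre11*-H125N stayed at 9.07 to 11.2 for all insertions, 8.16 to 9.75 for Ty and 6.80 to 8.84 for nuclear donors. With cassette donors as the denominator the adjusted *P* was 0.175 for Ty (9.75) and 0.197 for nuclear donors (8.25), where only 2 and 3 cassette donors stand below the ratio. Cassette donors may themselves differ between the genotypes. The ratio of the Ty shares, 1.06, was 0.732 (*P* = 0.634) with single-donor insertions only and 0.977 (*P* = 1.00) without a margin. With single-donor insertions only, nuclear donors were 11 in *sgs1*Δ and 0 in *mre11*-H125N, which gives no ratio. Against *sgs1*Δ *exo1*Δ, the Ty ratio was 0.655 (adjusted *P* = 0.296) with single-donor insertions only, 24 donors against 19. Against *rad27*Δ, the ratio of all insertions, 0.990, was 1.05 with single-donor insertions only and 1.27 with donors of at least 50 bp. Leaving the colonies of the *rad27*Δ libraries at 37 °C out of the denominator, an alternative added after seeing the data that matches how the study's supplement counts colonies, gave other values. They were 0.725 (adjusted *P* = 0.0492) for all insertions, 8.18 for Ty and 0.200 for nuclear donors. The list itself does not name libraries. Of 73 values under an alternative, 65 kept their direction and their side of the threshold. No paired analysis was possible because the lists pool the libraries of a genotype, and for the same reason no library could be left out. With 4 Ty and 2 nuclear donors in *mre11*-H125N, counting error sets the width of every ratio.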
